A study of Mus musculus with 7 samples.

Results

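The subject is the machinery that works directly downstream of G protein-coupled receptors, as read in the kisspeptin cells of 1 preoptic nucleus, the anteroventral periventricular nucleus (AVPV), in female mice. Its members were chosen by gene name alone: the protein-coding genes for G protein alpha subunits other than Gnas, beta subunits and gamma subunits, the RGS genes (regulators of G protein signalling), the receptor kinases Grk1 to Grk6, the arrestins Arrb1 and Arrb2, and the Gpsm, Gprin and Rasd genes. That rule found 70 of the 55384 genes listed, and 63 of the 70 had enough reads to be tested. Ribosome-bound RNA was sequenced from female C57BL/6 mice with the genotype Kiss1Cre+/Rpl22HA+/+, in which cells that have expressed Kiss1-driven Cre carry an HA-tagged ribosomal protein Rpl22. Tagged ribosomes were pulled down from AVPV micropunches, and markers of other cell types were read as well. The 3 E2 libraries came from females treated with estradiol (E2), and the 4 GDX libraries were made from females that had been ovariectomized and given no E2. Both groups carried the same Cre and tagged alleles, each library was a pool of 4 brains, and the labels give no age and no dose or duration of E2. Nor do they state outright that the E2 females were ovariectomized, so whether the groups also differ in surgery is not given.

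A heterotrimeric G protein has an alpha subunit, which binds GTP when a receptor is activated, and a beta-gamma pair, which is set free to act on channels, kinases and lipid enzymes. RGS proteins speed up GTP hydrolysis by the alpha subunit and so end the signal. Receptor kinases phosphorylate the active receptor and arrestins then bind it, while Gpsm, Gprin and Rasd proteins bind alpha subunits or switch them without a receptor. AVPV kisspeptin cells are known for the estradiol-induced release of kisspeptin that precedes the surge of luteinizing hormone, and their receptors for peptides and transmitters signal through these proteins.

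The E2 libraries held 30929883 to 33438199 counts and the GDX libraries 29207544 to 36213127. A count of 3, taken as the floor of detection, was worth 0.0818 to 0.101 CPM (counts scaled to library size), a floor that covers counting error only. Kiss1, the gene for kisspeptin that drives the Cre, averaged 415 CPM in E2 and 66.5 CPM in GDX (edgeR adjusted p = 0.0158), and Pgr, the progesterone receptor gene, averaged 117 CPM in E2 and 28.3 CPM in GDX. The summed level of 7 kisspeptin neuron markers was 3294 to 3446 CPM in E2 and 2239 to 2564 CPM in GDX. Gad2 held the largest part, at a mean of 983 CPM in E2 and 728 CPM in GDX. Of the 7, 4 were called higher, while Gad1 and Slc32a1 were not called. Esr1 went the other way, at 194 CPM in E2 and 255 CPM in GDX (edgeR adjusted p = 0.0901). The sum of 6 pan-neuronal markers was 3500 to 3729 CPM in E2 and 3266 to 3814 CPM in GDX. Glial and vascular markers were also present. The sum of 6 oligodendrocyte markers was 2557 to 3074 CPM in E2 and 2758 to 5728 CPM in GDX. That of 6 astrocyte markers was 829 to 981 CPM in E2 and 1080 to 2965 CPM in GDX. Levels below are thus those of the pulled-down RNA as a whole, not of kisspeptin cells alone. The mean log2 level over all glial and vascular markers, called the non-neuronal score below, was 4.72 to 5.03 in E2 and 5.08 to 5.81 in GDX. It was highest in GDX replicates 1 and 4. In such bulk samples, fewer cells of a type and less RNA per cell cannot be told apart. The score did not overlap between the groups, so a fit with it as a covariate cannot separate the score from treatment.

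With E2, a few modulators of G protein signalling changed, and no alpha or beta subunit, receptor kinase or arrestin passed the test. Rasd1, a Ras-like activator of Gi/o, was 6.00-fold higher in E2, and Gprin2, Gng4 and Rgs4 were 1.55-fold, 1.32-fold and 1.29-fold higher. Rgs16 and Rgs2 were lower, at 0.517 and 0.634 of their GDX level. These 6 of the 63 tested members passed the test (9.52%; an edgeR adjusted p under 0.05 over all 18282 genes tested), against 3.88% of all genes tested. The 4 rises compare with 2.55% of all genes called higher, and the 2 falls with 1.33% called lower. Of all tested members, 31 had a positive and 32 a negative log2 fold change, and 49.2% of all genes a negative one. The median was -0.01 over the tested members and 0.00 over all genes. The groups did not overlap for 15 of the 63 tested members (23.8%), 8 higher and 7 lower in E2, where 16.5% of all genes did not overlap, 8.43% with E2 higher and 8.06% with E2 lower. An unadjusted p under 0.05 was reached by 18 tested members (28.6%) and by 16.8% of all genes. A log2 fold change smaller than 0.5 in size was found for 53 tested members, and 3 had one of at least 1.

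**Figure D1:**
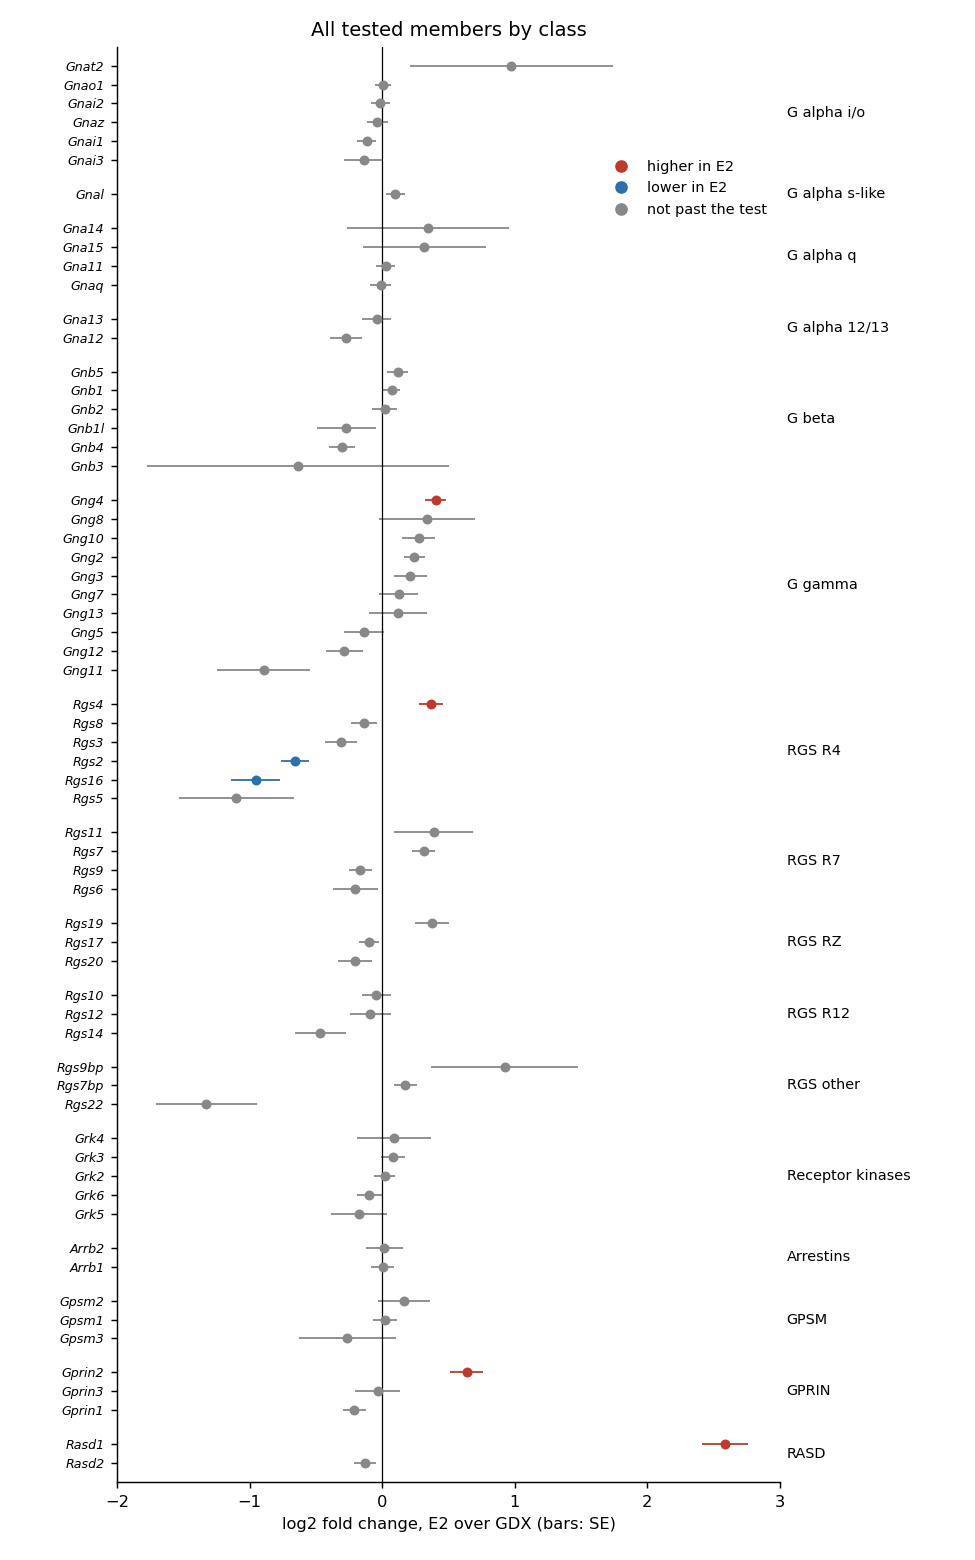
Log2 fold change of E2 over GDX for each of the 63 tested members, sorted within class, with bars of 1 standard error. Red marks the 4 members that passed the test as higher in E2, blue the 2 that passed as lower, and grey the 57 that did not pass. Rasd1 stands far to the right at 2.59, and most members lie within 0.5 of 0.

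Levels of different genes were set side by side only per length, as CPM per kilobase of exon. On that scale the gamma subunit Gng3 was the highest member, at 144 CPM per kilobase in E2 and 124 in GDX, followed by the beta subunits Gnb1 (118 in E2, 112 in GDX) and Gnb2 (115 in E2, 113 in GDX). Among the alpha subunits that are members, Gnai2 led, at 81.4 CPM per kilobase in E2 and 82.2 in GDX. Gnas, left out by the rule, stood higher, at 275 CPM per kilobase in E2 and 288 in GDX. Gng2 reached 80.3 CPM per kilobase in E2 and 67.9 in GDX. The leading RGS gene was Rgs4, with 74.9 CPM per kilobase in E2 and 58.1 in GDX. Among receptor kinases Grk2 led, with 46.3 CPM per kilobase in E2 and 45.8 in GDX. The 7 members that could not be tested were Gnat1, Gnat3, Rgs1, Rgs13, Rgs18, Rgs21 and Grk1, known from photoreceptors, taste cells or blood cells. None of these exceeded 0.401 CPM in any library, and Rgs18 had no count in any of the 7.

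**Figure D2:**
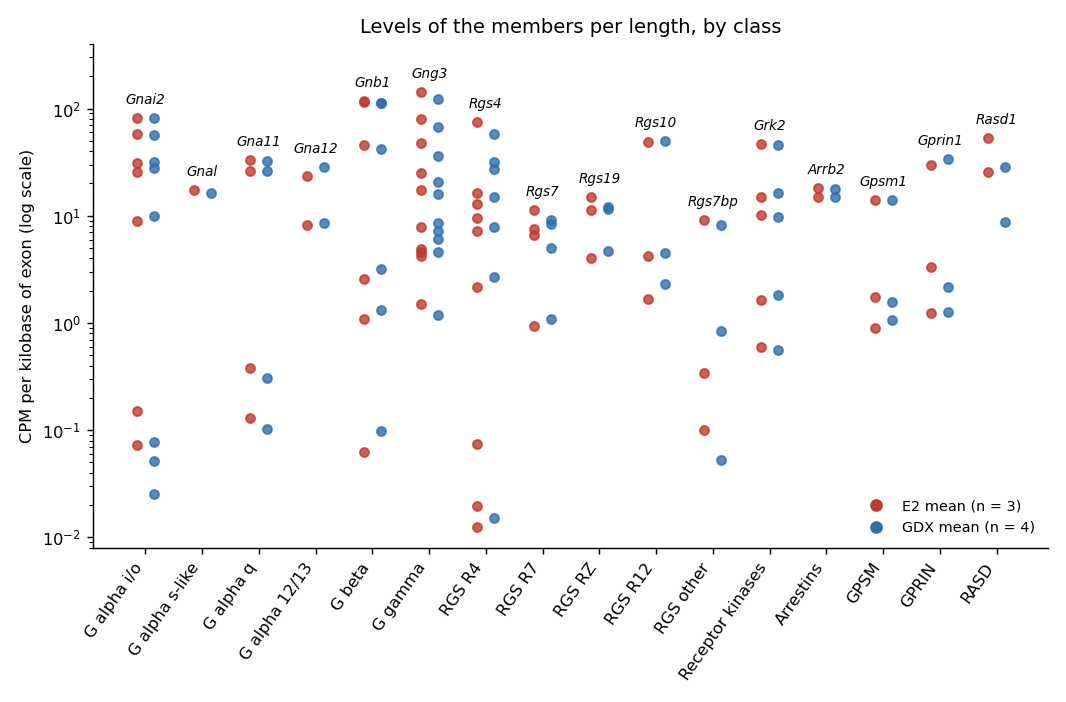
Mean level of each member in E2 (red, 3 libraries) and GDX (blue, 4 libraries), in CPM per kilobase of exon on a log scale, by class. Means of 0, and the means just above 0 of Grk1 in both groups and of Rgs1 in GDX, are not drawn. The name of the highest member stands above each class. The red and blue points of most members lie at nearly the same height, and those of Rasd1, at 52.6 and 8.75, do not.

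None of the 13 tested alpha subunits of 15 listed passed the test, and their median log2 fold change was -0.01. Gnao1, the Go subunit that is abundant in neurons, had 639.9, 621 and 641 CPM in E2 replicates 1 to 3, against 618, 659.8, 625 and 626 CPM in GDX replicates 1 to 4, and the same replicate order is used throughout. Gnai2, a Gi subunit that inhibits adenylyl cyclase, had 304, 327 and 292 CPM in E2 and 315, 286, 319 and 322 CPM in GDX. The groups overlapped for each of these genes, and the log2 fold changes were 0.00 ± 0.06 (SE) for Gnao1 and -0.02 ± 0.07 for Gnai2. Gnaz, the alpha subunit insensitive to pertussis toxin, averaged 112 ± 5.68 CPM in E2 and 115 ± 9.31 CPM in GDX (SD, n = 3 and n = 4 here and below). Gnai1 was 80.2 ± 2.68 CPM in E2 and 87.0 ± 2.13 CPM in GDX, without overlap, but at a log2 fold change of -0.12 it did not pass (edgeR adjusted p = 0.457). The cone transducin gene Gnat2 had a log2 fold change of 0.97 ± 0.76 at 0.456 CPM in E2 and 0.232 CPM in GDX, a level at which the error covers most of the difference.

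The Gq class couples receptors to phospholipase C. Gna11 had 125, 139 and 144 CPM in E2 and 132, 138, 132 and 131 CPM in GDX, and Gnaq had 162, 152 and 169 CPM in E2 and 161, 155, 152 and 181 CPM in GDX. The ranges overlapped for both, with log2 fold changes of 0.03 ± 0.07 for Gna11 and -0.01 ± 0.08 for Gnaq. Their relatives Gna14 and Gna15 stayed under 1 CPM in all libraries. Gnal, whose product Golf stimulates adenylyl cyclase in place of Gs in some neurons, had 186, 198 and 203 CPM in E2 and 184, 195, 186 and 165 CPM in GDX, again overlapping (log2 fold change 0.10 ± 0.07). Part of its exons overlaps Mppe1 on the opposite strand, and in unstranded libraries reads there cannot be assigned to 1 gene.

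Gna12 and Gna13 form the remaining class of alpha subunits. Gna12 had 82.6, 71.6 and 89.0 CPM in E2, against 121, 92.2, 89.2 and 90.4 CPM in GDX. All E2 values lay below all GDX values, though by as little as from 89.0 to 89.2 CPM, with GDX replicate 1 far above the other GDX libraries, and the difference did not pass (log2 fold change -0.28 ± 0.12, edgeR adjusted p = 0.268). Gna13 had 56.3, 50.3 and 52.6 CPM in E2 and 55.8, 48.0, 50.4 and 64.3 CPM in GDX, which overlapped.

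No beta subunit passed the test either, with all 6 tested. Gnb1, close to Gnb2 in level per length, had 508, 494 and 512 CPM in E2 and 474, 453, 503 and 489 CPM in GDX, and Gnb2 had 369, 416 and 387 CPM in E2 and 353, 389.9, 452 and 347 CPM in GDX. The ranges overlapped for both, and the log2 fold changes were 0.07 ± 0.06 for Gnb1 and 0.02 ± 0.09 for Gnb2. Gnb5, the beta subunit that pairs with RGS proteins of the R7 family, averaged 143 ± 7.79 CPM in E2 and 131 ± 9.68 CPM in GDX. Gnb4 was lower in each E2 library, at 32.5 ± 2.86 CPM in E2 and 40.1 ± 1.67 CPM in GDX, and missed the threshold (log2 fold change -0.30 ± 0.09, edgeR adjusted p = 0.117).

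Gamma subunits anchor the beta-gamma pair to the membrane by a lipid group. Their median log2 fold change was 0.17, with 7 of the 10 tested members positive, and 1 passed as higher. Over all genes tested, 49.2% had a negative log2 fold change and 2.55% were called higher. Gng4 (chromosome 13, 13784059 to 13827896, plus strand, GRCm38) had 158, 162 and 154 CPM in E2, against 120.2, 109, 132 and 118 CPM in GDX. Every E2 library was above every GDX library, and E2 replicates were close to one another. The mean was 158 ± 4.16 CPM in E2 and 119.6 ± 9.23 CPM in GDX, a log2 fold change of 0.40 ± 0.08 with an edgeR adjusted p of 0.0111. Gng4 no longer passed when E2 replicate 1 (edgeR adjusted p = 0.0648) or E2 replicate 2 (0.0693) was left out, or when the non-neuronal score entered as a covariate (0.146), although the log2 fold change remained 0.38 to 0.41.

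The more abundant gamma subunits had values on the same side as Gng4. Gng2 had 359, 356 and 343 CPM in E2 and 264, 299.6, 335 and 293 CPM in GDX, without overlap, and did not pass (log2 fold change 0.24 ± 0.08, edgeR adjusted p = 0.139). It passed by limma-voom (adjusted p = 0.0376) and by edgeR without GDX replicate 3 (0.0269), and had an edgeR adjusted p of 0.842 with the non-neuronal covariate. Gng3, a neuronal gamma subunit, had 234, 257 and 217 CPM in E2 and 192, 191, 256 and 175 CPM in GDX, where GDX replicate 3 reached the E2 range (0.21 ± 0.12, edgeR adjusted p = 0.436, and 0.0359 without GDX replicate 3). Gng3 shares exon bases with Bscl2 on the opposite strand, which was itself at 146 CPM in E2 and 132 CPM in GDX. Summed per length, the class stood at 337 ± 14.8 CPM per kilobase in E2 and 292 ± 30.9 in GDX.

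Gng11, a gamma subunit of vascular and other non-neuronal cells, had a log2 fold change of the opposite sign. So did Gng12 (-0.29 ± 0.14) and Gng5 (-0.14 ± 0.15), which did not pass. Gng11 had 5.36, 4.81 and 2.51 CPM in E2, against 10.3, 4.86, 5.58 and 10.7 CPM in GDX. The high values were those of GDX replicates 1 and 4, the other GDX libraries lay close to or within the E2 range, and the difference did not pass (log2 fold change -0.89 ± 0.35, edgeR adjusted p = 0.227). The summed level of 6 endothelial markers, none of them called and none at 0, was also highest in GDX replicates 1 and 4: 94.9, 156 and 150.3 CPM in E2 and 308, 192, 165 and 430.3 CPM in GDX. Without GDX replicates 1 and 4 the log2 fold change of Gng11 was -0.31.

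RGS genes of the R4 family, small proteins that consist of little more than the RGS domain, held 3 of the 6 called members. Of 10 R4 genes 6 were tested, and their median log2 fold change was -0.48. Of these 1 passed as higher and 2 as lower, where 2.55% and 1.33% of all genes did. The 1 that was higher, Rgs4, had an edgeR adjusted p of 0.0485 and was lost under 10 of 18 alternatives. Of the 10, 9 are on chromosome 1, in separate groups: Rgs8 ends 40.0 kb before Rgs16 begins, and Rgs5 ends 45.7 kb before Rgs4. The called genes Rgs2, Rgs16 and Rgs4 lie in different groups. The sequences that precede the start sites of the called R4 genes are shown because these genes moved in opposite directions. They are the 250 bases upstream of the RefSeq start (GRCm38.p6), read on the gene's strand, at chr1:144004150-144004399 (minus strand) for Rgs2, chr1:153740103-153740352 (plus strand) for Rgs16 and chr1:169747643-169747892 (minus strand) for Rgs4. Capitals mark TGACG, part of the cAMP response element, on either strand.
Rgs2: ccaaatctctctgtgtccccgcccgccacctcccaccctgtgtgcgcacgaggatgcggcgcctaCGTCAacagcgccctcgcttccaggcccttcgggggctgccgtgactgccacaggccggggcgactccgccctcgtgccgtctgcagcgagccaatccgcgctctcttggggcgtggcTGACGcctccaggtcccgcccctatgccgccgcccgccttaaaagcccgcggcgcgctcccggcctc
Rgs16: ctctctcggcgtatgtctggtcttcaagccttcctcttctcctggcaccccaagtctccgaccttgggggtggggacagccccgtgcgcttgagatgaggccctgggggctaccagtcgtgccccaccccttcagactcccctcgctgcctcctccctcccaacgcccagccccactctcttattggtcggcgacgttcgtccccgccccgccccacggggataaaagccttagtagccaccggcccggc
Rgs4: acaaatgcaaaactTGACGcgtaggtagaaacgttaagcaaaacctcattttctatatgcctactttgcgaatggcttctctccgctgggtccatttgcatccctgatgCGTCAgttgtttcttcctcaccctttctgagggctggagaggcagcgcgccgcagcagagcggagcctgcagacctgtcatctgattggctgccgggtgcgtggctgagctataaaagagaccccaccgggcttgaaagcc

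Of the 6 called members 5 had a window in the RefSeq promoter set used. Rasd1 had none there and was not searched. The windows run from 250 bases before to 50 bases after the start. TGACG on either strand was found in 13 of the 51 members with a window (25.5%) and in 23.0% of all genes. The longer TGACGTCA, which holds TGACG, was found in none of the 51 members and in 2.03% of all genes. The shorter estrogen motif AGGTCA was found in 5 members (9.80%), none of them among the 5 called members searched, and in 18.1% of all genes. The full estrogen response element, GGTCA and TGACC with any 3 bases between, was found in 0 of the 51 members and in 0.0740% of all genes. TGACG occurred in the windows of Rgs2 (lower in E2) and of Rgs4 and Gng4 (both higher in E2), and not in those of Rgs16 and Gprin2. These matches describe letters in a short window and not binding.

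Among the R4 genes, Rgs2 is known to act preferentially on Gq. Rgs2 (chromosome 1, 143999338 to 144004161, minus strand) had 32.7, 37.9 and 33.0 CPM in E2, against 49.3, 51.5, 60.4 and 56.6 CPM in GDX. The highest E2 library lay well below the lowest GDX library. The mean was 34.5 ± 2.90 CPM in E2 and 54.4 ± 5.01 CPM in GDX, a log2 fold change of -0.66 ± 0.10 with an edgeR adjusted p of 0.00294, and Rgs2 passed under each alternative setting that was run.

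Rgs16 acts on Gi/o and Gq and cycles with the day in the suprachiasmatic nucleus. Rgs16 (chromosome 1, 153740349 to 153745468, plus strand) had 37.5, 34.2 and 43.5 CPM in E2, against 51.9, 83.6, 91.7 and 70.1 CPM in GDX. The groups did not overlap, and the GDX libraries were spread more widely than the E2 libraries. The mean was 38.4 ± 4.71 CPM in E2 and 74.3 ± 17.4 CPM in GDX, a log2 fold change of -0.95 ± 0.18 with an edgeR adjusted p of 0.0210. The adjusted p was 0.121, 0.114 and 0.0511 without E2 replicate 1, 2 or 3, and 0.0510 and 0.0548 without GDX replicate 2 or 4. The summed level of 6 suprachiasmatic markers, of which none was called and none was at 0, was 86.0, 71.2 and 74.7 CPM in E2, against 97.4, 121, 127 and 83.7 CPM in GDX, and GDX replicates 2 and 3 were the highest in both Rgs16 and that sum. The markers did not go together. Rorb, the largest part of the sum, averaged 44.8 CPM in E2 and 56.2 CPM in GDX, without overlap. Its GDX values were 55.7, 50.7, 59.3 and 59.3 CPM. Avp averaged 17.1 CPM in E2 and 39.2 CPM in GDX, with GDX values of 31.0, 54.3, 51.8 and 19.7 CPM. Vip averaged 10.4 CPM in E2 and 5.58 CPM in GDX, the opposite order without overlap. Lhx1 averaged 2.54 CPM in E2 and 2.98 CPM in GDX, and Six6 1.58 CPM in E2 and 2.29 CPM in GDX. Nms averaged under 1 CPM in both groups. The part of these cells in the fall of Rgs16 was not tested.

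Rgs4 acts on Gi/o and Gq as well and was the most abundant R4 gene per length in every library. Its level per length was 3.53 to 5.28 times that of Rgs16 in E2 and 1.44 to 2.64 times in GDX. In GDX replicate 4 it was 60.6 CPM per kilobase, against 43.8 for Rgs5. Rgs4 (chromosome 1, 169741477 to 169747642, minus strand) had 253, 239 and 203 CPM in E2, against 182, 159.6, 191 and 188 CPM in GDX. All E2 libraries were above all GDX libraries, but E2 replicate 3 lay much nearer to the GDX range than the other E2 libraries. The mean was 232 ± 25.6 CPM in E2 and 180.1 ± 14.2 CPM in GDX, a log2 fold change of 0.37 ± 0.09 with an edgeR adjusted p of 0.0485, just inside the threshold. It was lost under 10 of 18 alternatives, with edgeR adjusted p up to 0.288, which was reached with the non-neuronal score as a covariate. Its edgeR adjusted p missed the threshold when GDX replicate 1 (0.121), GDX replicate 2 (0.116), E2 replicate 1 (0.243) or E2 replicate 2 (0.180) was left out, and under DESeq2 size factors (0.0506), with the sign kept each time.

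**Figure D3:**
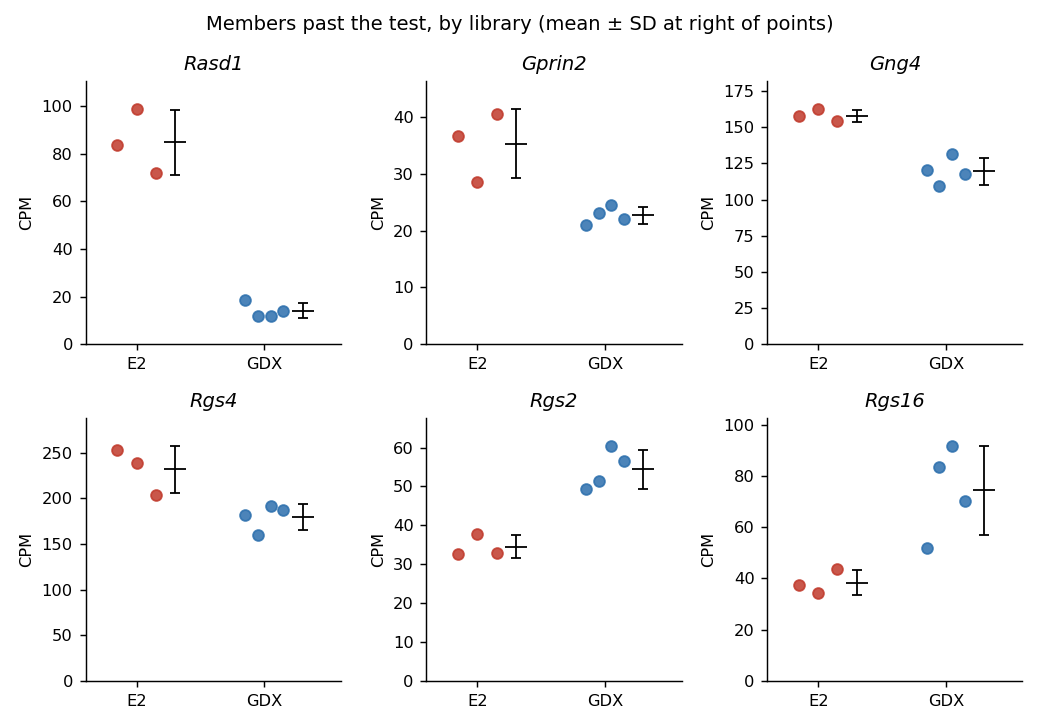
CPM of the 6 members that passed the test in each library, with the mean and SD beside the points, for E2 (red, n = 3) and GDX (blue, n = 4). The axes start at 0, and in no panel do the groups overlap. Rasd1, Gprin2, Gng4 and Rgs4 are higher in E2, and Rgs2 and Rgs16 are lower.

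The make-up of the family per length differed between the groups in the same directions. Rgs4 made up 65.7%, 61.1% and 55.3% of the summed R4 level per length in E2, against 42.6%, 39.9%, 42.5% and 37.8% in GDX. Rgs16 made up 12.9%, 11.6% and 15.7% in E2, against 16.1%, 27.7%, 27.0% and 18.7% in GDX. Neither share overlapped between groups, and since shares add up to a whole they are not independent of each other. Per length, the level of Rgs4 was 7.23 to 9.06 times that of Rgs2 in E2 and 3.63 to 4.31 times in GDX. The whole family summed to 123 ± 4.00 CPM per kilobase in E2 and 143 ± 13.3 in GDX. Rgs5, a marker of pericytes given below, averaged 12.9 CPM per kilobase in E2 and 27.6 in GDX. Its share was 7.27%, 11.8% and 12.4% in E2, against 23.6%, 12.8%, 12.1% and 27.3% in GDX. The summed level, and the whole of which each share is a part, thus include Rgs5 and are not those of neurons alone.

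The other tested R4 genes, Rgs3, Rgs5 and Rgs8, had negative log2 fold changes that did not pass. Rgs5, a marker of pericytes that neighbours Rgs4, had 41.1, 67.8 and 66.7 CPM in E2, against 148, 74.8, 79.9 and 199 CPM in GDX. The groups did not overlap, GDX replicates 2 and 3 lay just above E2, and GDX replicates 1 and 4 set the size of the difference (log2 fold change -1.10 ± 0.43, edgeR adjusted p = 0.287). The summed level of 6 pericyte markers was 51.6, 72.1 and 76.4 CPM in E2, against 127, 89.7, 73.3 and 210.1 CPM in GDX, with 0 of the 6 called and none at 0. Without GDX replicates 1 and 4 the log2 fold change of Rgs5 was -0.41, and with the non-neuronal score as a covariate it was -0.07. Rgs8, a neuronal gene for an RGS protein that speeds up the gating of potassium channels by G proteins, averaged 69.1 ± 9.47 CPM in E2 and 76.0 ± 4.02 CPM in GDX. Rgs3 averaged 23.4 ± 2.21 CPM in E2 and 29.1 ± 3.45 CPM in GDX (log2 fold change -0.31 ± 0.12, edgeR adjusted p = 0.216).

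RGS proteins of the R7 family form stable pairs with Gnb5 and act on Gi/o. None of the 4 tested members passed. Rgs7 had 67.2, 72.4 and 64.9 CPM in E2, against 55.9, 56.3, 58.7 and 48.8 CPM in GDX. The groups did not overlap, but the log2 fold change of 0.31 ± 0.09 missed the threshold (edgeR adjusted p = 0.0851). Rgs7 passed by the DESeq2 Wald test (adjusted p = 0.0354) and by limma-voom (0.0479), and its edgeR adjusted p rose to 0.612 with the non-neuronal covariate. Rgs9 had 47.7, 47.4 and 48.5 CPM in E2 and 53.5, 57.4, 55.4 and 48.3 CPM in GDX, where GDX replicate 4 lay within the E2 range (-0.16 ± 0.09). Rgs7bp, which anchors R7 proteins to the membrane, had 66.5, 69.5 and 59.7 CPM in E2 and 61.1, 56.8, 52.5 and 60.7 CPM in GDX, with overlap and a log2 fold change of 0.18 ± 0.09. Rgs6 and Rgs11 had log2 fold changes of -0.20 and 0.39 and overlapping groups, and Rgs9bp stayed under 1 CPM.

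The RZ family is known for action on Gz and Gi. Rgs19 had 37.4, 30.7 and 32.5 CPM in E2, against 22.7, 28.6, 29.5 and 22.7 CPM in GDX. The groups did not overlap, with E2 replicate 2 just above GDX replicate 3, and the difference did not pass (log2 fold change 0.37 ± 0.13, edgeR adjusted p = 0.152). Rgs17 had 96.6, 91.0 and 94.9 CPM in E2 and 96.0, 96.5, 106 and 105 CPM in GDX, which overlapped, and Rgs20 averaged 17.3 ± 2.15 CPM in E2 and 19.9 ± 1.84 CPM in GDX. In the R12 family, Rgs10 had 81.3, 92.7 and 75.0 CPM in E2 and 81.3, 87.3, 99.3 and 74.3 CPM in GDX. Rgs12, a larger protein that also binds inactive Gi alpha, had 29.8, 35.7 and 41.1 CPM in E2 and 41.4, 31.0, 32.6 and 46.1 CPM in GDX. Both overlapped, with log2 fold changes of -0.04 for Rgs10 and -0.09 for Rgs12. Rgs14 averaged 7.11 ± 1.3 CPM in E2 and 9.82 ± 1.5 CPM in GDX (-0.47 ± 0.19, edgeR adjusted p = 0.247).

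Rgs22, a low-abundance RGS gene outside these families, had the largest negative log2 fold change of all tested members. It had 0.956, 2.77 and 2.01 CPM in E2, against 6.05, 3.72, 3.38 and 6.00 CPM in GDX. The groups did not overlap, GDX replicates 1 and 4 were the highest, and the difference missed the threshold (log2 fold change -1.33 ± 0.38, edgeR adjusted p = 0.0883). It passed by the DESeq2 Wald test (adjusted p = 0.0117) and by limma-voom (0.0432), and with the non-neuronal covariate its log2 fold change was -0.56 (edgeR adjusted p = 0.733). The summed level of 5 ependymal markers was 26.4, 41.7 and 54.1 CPM in E2, against 84.7, 54.8, 72.6 and 105 CPM in GDX. Of those 5 markers 1, Rarres2, was called lower and none was at 0. Their part in the difference of Rgs22 was not tested, and without GDX replicates 1 and 4 its log2 fold change was -0.90.

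**Figure D4:**
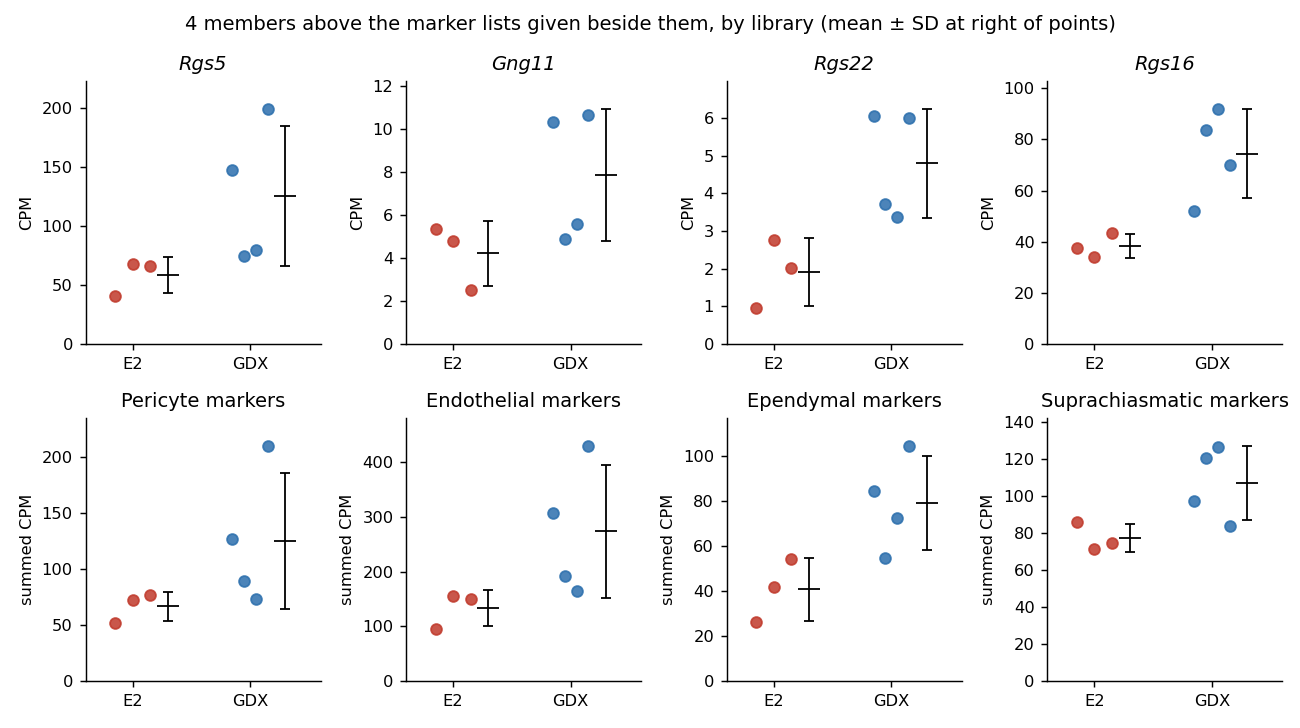
CPM of Rgs5, Gng11, Rgs22 and Rgs16 in each library (top row) above the summed CPM of the pericyte, endothelial, ependymal and suprachiasmatic markers (bottom row), with mean and SD, for E2 (red, n = 3) and GDX (blue, n = 4). The axes start at 0. GDX replicates 1 and 4, the first and last blue points of a panel, are the highest for Rgs5, Gng11 and Rgs22 and for the marker lists below them, while GDX replicates 2 and 3 are the highest for Rgs16 and the suprachiasmatic list.

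Receptor kinases and arrestins, which desensitize receptors, showed no called member. Grk2 had 195, 213 and 214 CPM in E2 and 212, 210.3, 213 and 183 CPM in GDX, where GDX replicate 4 stood below all others (log2 fold change 0.02 ± 0.08). Grk6 had 61.6, 58.3 and 70.5 CPM in E2 and 67.3, 73.4, 69.8 and 61.4 CPM in GDX. The groups overlapped for both kinases. Grk3, which like Grk2 binds beta-gamma, averaged 89.1 ± 5.55 CPM in E2 and 84.3 ± 7.62 CPM in GDX, and the log2 fold changes of Grk4 and Grk5 were 0.09 ± 0.28 and -0.18 ± 0.21. Arrb1 had 164, 149 and 187 CPM in E2 and 173, 172, 160.0 and 160.2 CPM in GDX, and Arrb2 had 51.9, 52.5 and 50.2 CPM in E2 and 45.1, 58.2, 61.2 and 39.3 CPM in GDX. Both overlapped, with log2 fold changes of 0.00 ± 0.08 for Arrb1 and 0.02 ± 0.14 for Arrb2. Per length, the arrestins were nearly level with each other, at 14.9 CPM per kilobase for Arrb1 in both groups and, for Arrb2, 18.1 in E2 and 17.9 in GDX.

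Gpsm proteins hold alpha subunits of the Gi class in their inactive form. Gpsm1 had 76.2, 68.6 and 83.2 CPM in E2 and 70.6, 79.5, 80.4 and 69.3 CPM in GDX, and Gpsm2 had 6.57, 7.25 and 6.64 CPM in E2 and 6.57, 6.98, 4.97 and 5.84 CPM in GDX. The groups overlapped for both, and none of the 3 tested Gpsm genes passed.

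Gprin proteins bind activated alpha subunits of the Gi/o class and promote the growth of neurites. Gprin2 (chromosome 14, 34185688 to 34201653, minus strand) had 36.6, 28.6 and 40.6 CPM in E2, against 20.9, 23.2, 24.5 and 22.1 CPM in GDX. All E2 libraries lay above the GDX libraries, which were close to one another. The mean was 35.3 ± 6.09 CPM in E2 and 22.7 ± 1.53 CPM in GDX, a log2 fold change of 0.64 ± 0.13 with an edgeR adjusted p of 0.0134. Gprin2 no longer passed when GDX replicate 1 (edgeR adjusted p = 0.0539), E2 replicate 1 (0.0846) or E2 replicate 3 (0.0872) was left out, or when the non-neuronal score entered as a covariate (0.227). Gprin1, the most abundant of the class per length, had 119.5, 125 and 140.5 CPM in E2, against 133, 156, 155 and 150.2 CPM in GDX. It overlapped and did not pass (log2 fold change -0.21 ± 0.08, edgeR adjusted p = 0.232), and Gprin3 averaged 10.3 CPM in E2 and 10.5 CPM in GDX.

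Rasd1 and Rasd2 are Ras-like proteins related to each other. Rasd1 was first found as a gene induced by dexamethasone and can activate Gi/o without a receptor, and Rasd2 is known from the striatum. Rasd1 (chromosome 11, 59963181 to 59964944, minus strand) had 83.8, 98.7 and 71.8 CPM in E2, against 18.8, 11.8, 11.9 and 13.9 CPM in GDX. The lowest E2 library was far above the highest GDX library. The mean was 84.8 ± 13.5 CPM in E2 and 14.1 ± 3.25 CPM in GDX, a log2 fold change of 2.59 ± 0.17 with an edgeR adjusted p of 1.79e-05, and Rasd1 passed under each alternative setting that was run. Rasd2 had 78.8, 80.8 and 86.2 CPM in E2 and 82.2, 97.2, 91.9 and 87.4 CPM in GDX. It overlapped and did not pass (log2 fold change -0.13 ± 0.08, edgeR adjusted p = 0.479). Per length, the level of Rasd1 was 2.09, 2.41 and 1.64 times that of Rasd2 in E2, against 0.450, 0.240, 0.255 and 0.314 times in GDX, so Rasd1 was the higher of the pair in all 3 E2 libraries and the lower in all 4 GDX libraries. The summed level of the pair was 78.4 ± 7.64 CPM per kilobase in E2 and 37.0 ± 0.895 in GDX.

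A further list of 35 genes that act on or with these proteins was counted, including chaperones and exchange factors of alpha subunits, phospholipases, adenylyl cyclases and kinases that respond to beta-gamma. Of 34 tested, 2 passed as higher and 0 as lower, where 2.55% and 1.33% of all genes did, and 32 did not pass. Pik3r5, the regulatory subunit p101 that makes phosphoinositide 3-kinase gamma responsive to beta-gamma, had 23.3, 25.7 and 18.8 CPM in E2, against 4.09, 4.60, 4.12 and 5.92 CPM in GDX. The groups lay far apart, at a log2 fold change of 2.27 ± 0.18 (4.83-fold, edgeR adjusted p = 1.79e-05), while Pik3cg, the catalytic subunit it serves, was low in both groups, at 0.595 CPM in E2 and 1.17 CPM in GDX, with overlap (edgeR adjusted p = 0.503). Rap1gap, a GTPase activator of Rap1 that also binds Gi/o and Gz alpha subunits, had 625, 618 and 602 CPM in E2, against 342, 391, 339 and 355 CPM in GDX. Again no library of E2 came near those of GDX (0.78 ± 0.07, 1.72-fold, edgeR adjusted p = 3.98e-05). Gnas, the stimulatory alpha subunit, had 2975, 3197 and 3043 CPM in E2, against 3018, 3241, 3623 and 2982 CPM in GDX. Ric8a, a chaperone of alpha subunits, had 64.2, 61.6 and 66.1 CPM in E2, against 63.1, 68.0, 64.9 and 64.5 CPM in GDX. Both overlapped, and neither passed (edgeR adjusted p = 0.749 for Gnas and 0.912 for Ric8a).

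Of the 70 members, 22 share exon bases with another annotated gene, so that reads there may be split between genes. Among the called members this holds for Rgs16 alone, by 236 bases with the antisense gene Gm28513, which averaged 0 CPM in E2 and 0.0275 CPM in GDX.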

How the data were processed

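The authors deposited 1 table of expected counts for 7 libraries. Trimmomatic 0.38, STAR 2.6.0a, RSEM 1.3.0 and the build mm10 are named, without roles or order, per the submitters' processing notes. The gene annotation is not given in the sources used here. Of 55384 gene identifiers, 55203 matched GENCODE vM21 (GRCm38), which gave symbols, coordinates and exon lengths. Expected counts were rounded (33.1% of non-zero values were not whole), scaled by TMM and filtered with filterByExpr (minimum count 10, minimum total 15), which left 18282 genes. E2 was compared with GDX by the robust edgeR quasi-likelihood test (edgeR 4.0.16, R 4.3.3), and p-values were adjusted over all genes tested by Benjamini-Hochberg with a threshold of 0.05. Log2 fold changes, E2 over GDX, use a prior count of 0.125. Their standard errors were calculated back from the test, as the size of the log2 fold change over the square root of F. CPM are TMM-scaled, and motifs were searched in RefSeq promoter windows. A self-test on simulated counts ran after the fits, and its outcome is not given here.

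Members and lists were chosen with earlier results of these data known. Genes given by library are called members, the 2 highest per length in each class, the 6 largest log2 fold changes at a mean of at least 1 CPM, called partners and the first 2 partners not called. Other genes are given by mean, range or log2 fold change, and those were partly chosen after their values were seen. Some tested members, such as Gnai3, Gnb1l and Gng7, have no value of their own in the text. The p-values measure spread between pools of brains. Alternatives were other scalings and filters, the DESeq2 1.42.0 Wald test, limma-voom (limma 3.58.1), no robust option, a replicate block, a non-neuronal covariate, leaving out libraries and a stricter threshold of 0.01.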

Additional observations from a re-analysis of the deposited data

Results flagged for a closer look

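Among the 37 groups of 4 GDX values that were tested for a library far from the others, 2 stood out, where chance flags about 1 in 20. Gna12 was at 121 CPM in GDX replicate 1 and at 89.2 to 92.2 CPM in the other GDX libraries. Grk2 was at 183 CPM in GDX replicate 4 and at 210.3 to 213 CPM in the other GDX libraries. Neither gene passed the test of E2 against GDX.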

How the results depend on the processing

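The edgeR test called 4 members higher and 2 lower in E2. Lower members numbered 4 without the filter on low counts, which added Gng11 and Rgs22, and 4 by the DESeq2 Wald test, which added Gnb4 and Rgs22. Lower calls over all genes numbered 887 without the filter, 725 by DESeq2 and 243 by the edgeR test as described. DESeq2 called 5 higher, adding Rgs7, and limma-voom 6, adding Gng2 and Rgs7. Higher calls over all genes numbered 675 by DESeq2, 684 by limma-voom and 467 by the edgeR test. With the non-neuronal score as a covariate 1 member, Rasd1, was called higher, and 2 lower, among 255 and 113 of all genes (467 and 243 without it). At an adjusted p under 0.01, 1 was called higher (Rasd1) and 1 lower (Rgs2). Leaving out each library in turn gave 1 to 6 higher and 1 to 2 lower, with 1 higher without E2 replicate 1, 2 higher without E2 replicate 2 or GDX replicate 1, and 6 higher without GDX replicate 3. Lower members numbered 1 when any 1 of the E2 replicates, GDX replicate 2 or GDX replicate 4 was left out. Without GDX replicates 1 and 4 together the counts were 4 and 2. The cause of these changes was not tested. Rasd1 and Rgs2 passed under all 18 alternatives, at log2 fold changes of 2.46 to 2.93 for Rasd1 and -0.73 to -0.60 for Rgs2, as did Pik3r5 and Rap1gap. Gng4 was lost in 3, Gprin2 in 4, Rgs16 in 5 and Rgs4 in 10, all with the same sign. Library sizes without scaling factors moved the median of all genes to -0.06. With the replicate number as a block, 3 members were higher, without Rgs4 (edgeR adjusted p = 0.0845), and 2 lower. Deviations of same-numbered libraries correlated at -0.02, -0.04 and -0.06, so the numbers were not taken to pair them. The floor was set at 3 counts, and depth fixed its value in CPM. For the 7 members not tested, levels are given and no statement is made on E2 against GDX.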
